A study of Saccharomyces cerevisiae with 4 samples.

Results

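The genes described here are those of *Saccharomyces cerevisiae* whose transcript level differed between cells lacking *SOD1* and wild type cells by at least 2-fold, and in the same direction, both after hydrogen peroxide and without it. *SOD1* encodes the cytosolic copper-zinc superoxide dismutase. A gene was a member when its deposited log2 signal was above 6 on at least 1 array and the sod1Δ minus wild type difference was at least 1 log2 unit, with 1 sign, in both conditions. Of 5449 measured genes 5065 passed the level filter, and 130 of these were members (2.57%): 69 higher in sod1Δ (1.36%) and 61 lower (1.20%), with *SOD1* itself among the lower ones.

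There were 4 arrays in all: sod1Δ treated with H2O2, sod1Δ untreated, wild type treated and wild type untreated, all of haploid strain FM391. Treated cultures received 0.4 mM H2O2 for 20 min. All were in early log phase, at an OD600 of about 0.4, at 30 °C in synthetic medium lacking leucine. Each strain and treatment was measured on 1 array, so no value below has a replicate error, and the labels do not say whether the treated and untreated cells of a strain came from separate cultures. Whether sod1Δ was 1 clone is not given in the labels, so a feature of that culture and an effect of the deletion cannot be told apart. The same arrays and the same threshold chose the members, so their strain differences are a description and carry no test. The gene lists used below were also set out with earlier results of these data known. Counts of members on them are therefore a description too.

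Sod1 removes superoxide, and cells without it are known to carry more oxidative damage, to lose iron-sulfur clusters and to need methionine and lysine in air. Several of the gene sets met below belong to well known nutrient circuits. Yeast senses phosphate through the kinase Pho85 and the transcription factor Pho4, thiamine through Thi2, Thi3 and Pdc2, and iron through Aft1, while Msn2 and Msn4 drive the general stress response.

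The level of *SOD1* matched the labels, with 2.42 after H2O2 and 2.40 untreated in sod1Δ, against 14.31 and 14.21 in wild type. Its neighbours *URA8* (0.15 after H2O2 and 0.17 untreated) and *ADO1* (-0.05 and -0.16) differed little between the strains. Transcripts of the a mating type were present on all arrays. Of 4 alpha genes *MF(ALPHA)1* was at background (2.18 to 2.22), but 3 passed the level filter, with *STE3* at 6.72 to 8.62. None of the 1746 probe sets for *Schizosaccharomyces pombe* on the array was above 6. Their 95th percentile, 2.31, is taken as the background level. The 3′ minus 5′ signal of 9 yeast control genes had medians of 0.45 and 0.52 on the treated and untreated sod1Δ arrays, against 0.56 and 0.86 on those of wild type. Of 68 control probe sets above 6, 1 met the membership rule, the 5′ probe set of *SRB4*, at -2.13 after H2O2 and -1.41 untreated. The part of RNA quality in the member set was not tested.

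Across the 5065 genes the strain difference after H2O2 and the strain difference in untreated cells, which share no array, correlated with r = 0.65 (Spearman rho = 0.62, and r = 0.62 without *SOD1*). The genes are not independent and all arrays share a normalization, so this is a description. After H2O2, 147 genes were at least 2-fold higher in sod1Δ (2.90%) and 293 lower (5.78%), and in untreated cells 193 were higher (3.81%) and 139 lower (2.74%). The 69 members that were higher made up 46.9% of the treated and 35.8% of the untreated set, and the 61 that were lower 20.8% and 43.9%. Genes past 2-fold in only 1 condition could have either sign in the other. Of those higher only after H2O2, 69 had the same sign in untreated cells and 9 the other sign, and of those lower only after H2O2, 213 and 19. Of those higher only in untreated cells, 114 had the same sign after H2O2 and 10 the other, and of those lower only there, 67 and 11. A difference past 2-fold in both conditions but of opposite sign was seen in 2 genes, the protein sorting factor gene *CUR1* (1.67 after H2O2 and -1.84 untreated) and the ribonucleotide reductase gene *RNR3* (-1.31 and 1.09).

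**Figure D1:**
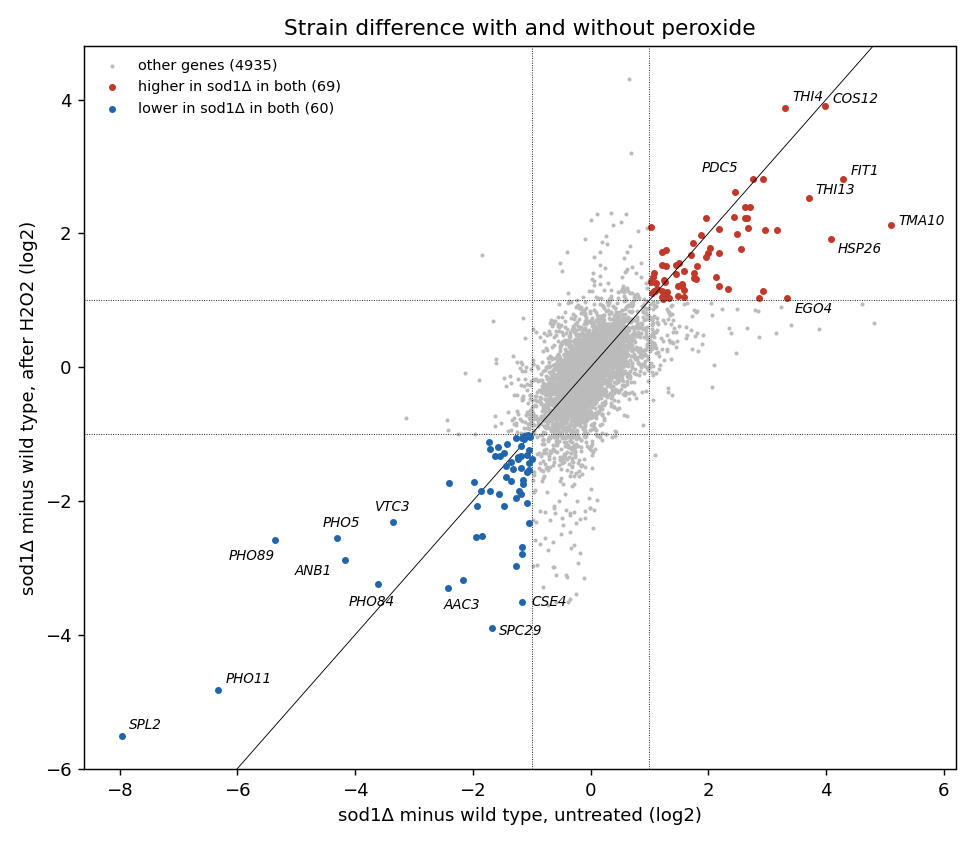
Each point is 1 of 5064 genes above the level filter (*SOD1* is left out, at -11.81 and -11.88); the horizontal axis is the log2 strain difference in untreated cells and the vertical axis that after H2O2, dotted lines mark 1 and -1, and the solid line marks equal differences. The 69 red and 60 blue points are the members; *SPL2* and *PHO11* lie farthest to the lower left, and *COS12* and *THI4* near the line at the upper right.

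A model with strain and treatment terms over all 4 arrays (limma, Benjamini-Hochberg adjusted over the 5065 genes) called 30 genes higher (0.592%) and 19 lower (0.375%) in sod1Δ at an adjusted p of 0.05. All 49 were members, and these calls rest on the same arrays as the rule, so nothing is read from them. The residual of that model has 1 degree of freedom, which is the change of the strain difference between treatments and not a spread between cultures. The counts depended strongly on processing: 0 to 215 higher and 1 to 137 lower over the alternatives.

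Among the members the higher ones were the brighter, with a median level over the 4 arrays of 8.31 against 6.60 for the lower ones and 9.41 for all genes above the filter. No array reached 8 for 13 of the 69 higher members and for 27 of the 61 lower members, beside 754 of 5065 genes in all. Many lower members were thus dim in both strains. Quantile normalization left the 69 higher members in place and kept 40 of the 61 lower ones, and gave 86 higher and 41 lower genes in all. With a constant of 32 added before taking logs, 50 genes were higher and 24 lower.

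The largest member differences after *SOD1* belonged to the phosphate starvation genes, which Pho4 switches on when phosphate is short. Of the 15 genes of that list above the filter, 6 were members with lower levels in sod1Δ and 1 was a member with a higher level. Their median difference was -0.94 after H2O2 and -1.17 untreated, beside -0.05 and -0.06 for all genes.

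*SPL2*, whose small protein reduces uptake by the low-affinity phosphate transporters, was at 2.96 after H2O2 and 2.45 untreated in sod1Δ, against 8.47 and 10.41 in wild type. The sod1Δ levels were close to background on both arrays, where this kind of normalization stretches folds. *PHO84*, encoding the high-affinity phosphate transporter, stayed bright in sod1Δ at 9.27 and 9.93, against 12.52 and 13.54 in wild type, and so was 9.49-fold lower after H2O2 and 12.3-fold lower untreated. The gene of the sodium-coupled transporter, *PHO89*, was at 3.60 and 3.21 in sod1Δ, against 6.18 and 8.56 in wild type. In these 3 genes both sod1Δ arrays lay below both wild type arrays.

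The secreted acid phosphatases showed the same order. *PHO5* was at 8.55 after H2O2 and 7.93 untreated in sod1Δ, against 11.09 and 12.23 in wild type. *PHO11* was at 4.63 and 5.55, against 9.46 and 11.88, on a probe set that the near-identical *PHO12*, which is not named here, can share. *VTC3*, a subunit gene of the vacuolar polyphosphate polymerase, was at 7.10 and 7.98, against 9.40 and 11.34. For all 6 lower members of the list the untreated difference was the larger: the change with peroxide lay between -0.92 (*PHO11*) and 0.62 (*PHO5*) in sod1Δ, against -2.42 (*PHO11*) and -1.02 (*PHO84*) in wild type.

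Of the 15 phosphate genes 12 were lower in sod1Δ in both conditions and 2 higher in both, beside 2160 and 1573 of 5065 genes in all. *VTC4*, the catalytic subunit gene of the same polymerase, stood just outside the threshold at -0.99 after H2O2 and -1.17 untreated. *PHM6* (-0.94 and -2.43), *PHO81* (-0.42 and -1.14), the alkaline phosphatase gene *PHO8* (-0.59 and -0.99), *VTC1* (-0.56 and -0.75) and *VTC2* (-0.54 and -0.83) were lower in both conditions too. *PHM8* had a mixed sign (-0.74 and 0.62), and *GDE1* was slightly higher (0.15 and 0.06). The member in the other direction was *PHM7*, at 11.96 and 7.68 in sod1Δ, against 10.81 and 4.76 in wild type. None of the 11 measured genes of phosphate regulation and low-affinity transport was a member, where 2.57% of all genes were. *PHO4* itself had the largest mean difference among them, at -0.89 after H2O2 and -0.77 untreated.

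Thiamine genes formed a bright set among the higher members. Thiamine diphosphate is the cofactor of pyruvate decarboxylase and transketolase, and yeast turns on its synthesis genes when the vitamin is short. Of 19 genes of the list above the filter 5 were members, all higher in sod1Δ, with a list median of 0.28 after H2O2 and 1.01 untreated.

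*THI4*, which makes the thiazole part of the vitamin, was at 12.49 after H2O2 and 13.31 untreated in sod1Δ, against 8.62 and 10.01 in wild type, 14.6-fold and 9.84-fold higher. *THI13*, of the family that makes the pyrimidine part, was at 11.48 and 12.09, against 8.95 and 8.39. Its near-identical relatives *THI5*, *THI11* and *THI12* have no probe set named here, and the signal may include them. The activator gene *THI2* was at 8.96 and 9.20, against 7.63 and 7.45.

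*PDC5*, a pyruvate decarboxylase gene known to be induced when thiamine is short, was at 9.97 after H2O2 and 11.19 untreated in sod1Δ, against 7.15 and 8.44 in wild type. *THI73*, a presumed transporter gene, was at 9.43 and 11.62, against 7.20 and 8.99. In all 5 members both sod1Δ arrays were above both wild type arrays. Unlike the stress genes below, none of the 5 was 2-fold higher with peroxide in either strain: *PDC5*, with changes of -1.22 in sod1Δ and -1.29 in wild type, and *THI73*, with -2.19 and -1.79, were lower after it in both. Over the whole list 14 of 19 genes were higher in sod1Δ in both conditions and 2 lower in both, beside 1573 and 2160 of 5065 genes in all. Of the 19, 6 were at least 2-fold higher after H2O2 and 10 untreated. *THI7*, the thiamine transporter gene, was higher by 1.09 after H2O2 and 0.75 untreated and *THI20* by 0.87 and 1.07, while the 2 lower in both were *THI22* (-0.36 and -0.02) and *THI80* (-0.24 and -0.06).

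Of 35 genes of general stress, mostly targets of Msn2 and Msn4, 5 were members and all were higher in sod1Δ. In the whole list 32 of 35 genes were higher in sod1Δ in both conditions, beside 1573 of 5065 genes in all. The medians were 0.53 after H2O2 and 1.39 untreated, but for most of the list the difference after peroxide stayed under 2-fold. In untreated cells 20 of the 35 were at least 2-fold higher in sod1Δ, and after H2O2 only 6 were.

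*TMA10*, whose product is found with ribosomes, was at 11.34 after H2O2 and 7.98 untreated in sod1Δ, against 9.21 and 2.88 in wild type. The small heat shock protein gene *HSP26* was at 12.70 and 11.98, against 10.78 and 7.90, so untreated sod1Δ exceeded treated wild type. *MOH1*, linked to survival in stationary phase, was at 8.87 and 6.91, against 6.24 and 4.46. The other pair were paralogues of pentose phosphate enzymes, *NQM1* for transaldolase (2.39 after H2O2 and 2.71 untreated) and *GND2* for 6-phosphogluconate dehydrogenase (1.71 and 2.18). *SOL4* (0.66 after H2O2 and 4.82 untreated) and *DDR2* (0.57 and 3.88) were not members because their difference after H2O2 was under 1.

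Reserve and carbon genes added a few more higher members. *GDB1*, the glycogen debranching enzyme gene, was the only member among 19 trehalose and glycogen genes, at 12.75 and 11.38 in sod1Δ, against 11.58 and 9.04 in wild type. *HXT5*, the hexose transporter gene of slow growth, differed by 1.16 after H2O2 and 1.59 untreated, the transcription factor gene *ADR1* by 1.24 and 1.55, and *GUT2*, for mitochondrial glycerol-3-phosphate dehydrogenase, by 1.41 and 1.76. *USV1*, a zinc finger factor gene of stress and respiratory growth, was at 10.16 and 6.53, against 8.38 and 4.50. None of the 32 peroxide defence genes was a member. Neither was any of 24 heat shock, 30 respiration, 30 ribosome biogenesis, 26 ergosterol, 11 zinc, 9 lysine or 8 copper genes above the filter. With 2.57% of all genes members, lists of these sizes would hold few or none, so nothing is read from this. Of the peroxide defence genes 4 were at least 2-fold higher and 1 lower in untreated sod1Δ. Of the ribosome biogenesis genes 2 were at least 2-fold higher and 9 lower after H2O2. The old yellow enzyme gene *OYE3* was the only Yap1-linked member, at 1.11 and 1.05.

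Genes of selective autophagy and of the vacuole stood out when the members were read through, so the group of 38 set out for them was chosen after their values were seen. Of the 36 above the filter 6 were higher members and 0 lower, with medians of 0.20 after H2O2 and 0.51 untreated. In sod1Δ 27 of the 36 were higher after H2O2 and 31 untreated, by any amount, where the medians of all genes were -0.05 and -0.06. The group was picked with these values seen, so nothing is read from the counts. Autophagy genes with a lower mean over both conditions in sod1Δ included *ATG12* (-0.37) and *ATG5* (-0.30). *ATG39*, the receptor for degrading parts of the nuclear envelope, was at 9.94 and 5.64 in sod1Δ, against 7.54 and 3.01 in wild type. The receptor genes *ATG32* for mitochondria (1.27 and 1.27) and *ATG40* for the endoplasmic reticulum (1.02 and 1.24) and the adaptor gene *ATG11* (1.53 and 1.22) were members too. So were the vacuolar protease gene *PRB1* (1.05 and 1.59) and the vacuolar mannosidase gene *AMS1* (1.21 and 1.49). The ubiquitin pathway members *UBC5* (1.21 and 1.55) and *VID30* (1.05 and 1.22), a subunit gene of the ligase that degrades gluconeogenic enzymes, were also higher.

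Among 31 iron genes, 2 were higher members and 1 was lower. *FIT1*, for a cell wall mannoprotein that helps retain iron-loaded siderophores, was at 9.82 after H2O2 and 10.21 untreated in sod1Δ, against 6.997 and 5.92 in wild type. Its relative *FIT3* was at 13.97 and 14.04, against 12.65 and 12.25. The ferric reductase gene *FRE4* was lower, at 4.89 and 5.37, against 6.74 and 7.07. In untreated cells 11 genes of the list were at least 2-fold higher in sod1Δ, and after H2O2 only the 2 *FIT* members were. *FIT2*, the third of the family, was close to the top of the scale and differed by 0.64 and 1.05. *LSO1* (0.95 and 4.61) missed the threshold after H2O2.

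**Figure D2:**
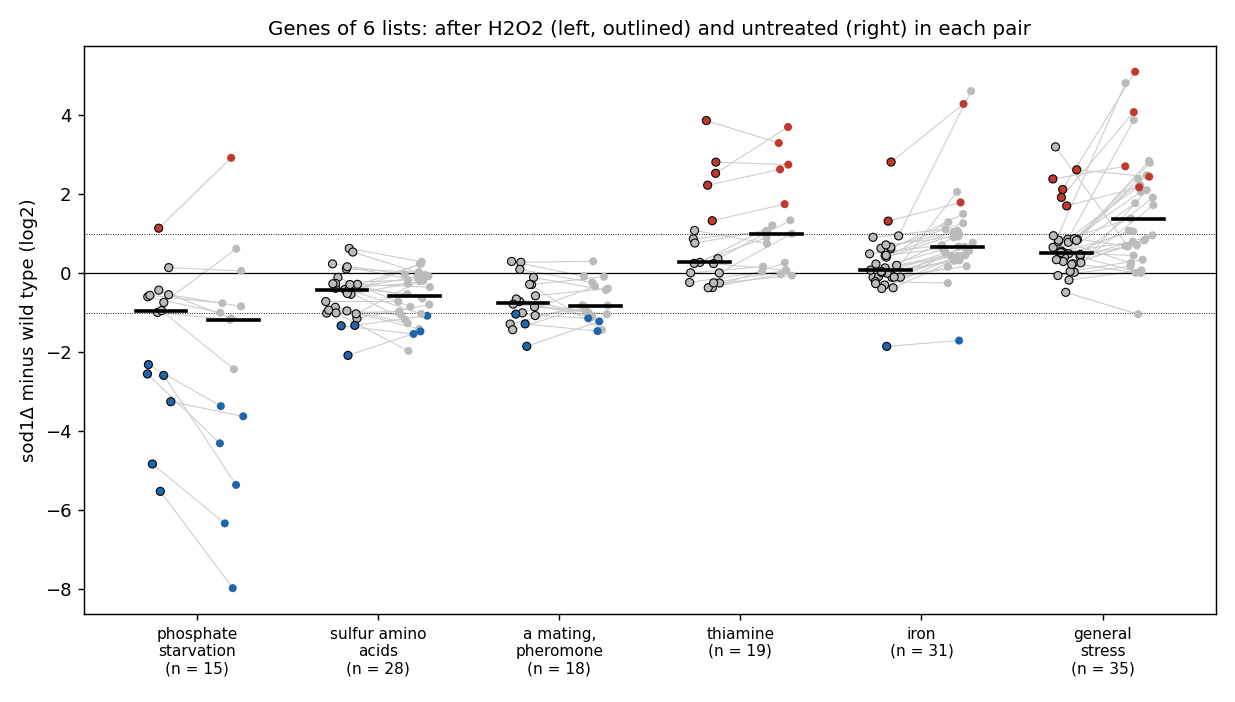
Log2 strain difference (vertical axis) of every gene above the level filter in 6 lists, with the value after H2O2 (left, outlined) joined to the untreated value (right); red and blue points are higher and lower members, grey points are other genes of the list, and bars are medians. In the phosphate list the blue points lie between -2.31 and -7.97, and in the thiamine list the red points lie between 1.33 and 3.87.

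Most sulfur and a mating genes were lower in sod1Δ by modest amounts, with 3 lower members on each list, beside 61 of 5065 genes in all. Of 28 sulfur amino acid genes above the filter 3 were lower members, and the medians were -0.41 after H2O2 and -0.58 untreated. *CBF1*, a regulator gene that acts at methionine genes and centromeres, was at 6.55 and 6.98 in sod1Δ, against 8.62 and 8.45 in wild type. *MET28*, for a cofactor of the same regulators, was at 8.70 and 5.73, against 10.02 and 7.27, and *MET16*, for a reductase of sulfate assimilation, differed by -1.32 and -1.07. *MET14*, for the kinase that acts just before it, missed the threshold at -0.9998 and -1.96. *MET17* was at background on all arrays.

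In the a mating list 3 of 18 genes were lower members, with medians of -0.75 after H2O2 and -0.83 untreated. Of the 18, 15 were lower in both conditions, beside 2160 of 5065 genes in all. *SST2*, whose product turns the pheromone signal off, was at 8.46 and 8.49 in sod1Δ, against 9.74 and 9.96 in wild type. *FAR1*, for the cell cycle arrest factor of that pathway, differed by -1.03 and -1.13, and *PRM1*, for a cell fusion protein, by -1.85 and -1.22. In a group of 20 pheromone signalling genes chosen after their values were seen, the G protein beta subunit gene *STE4* (-1.04 and -1.02) and the transcription factor gene *TEC1* (-1.56 and -1.07) were members as well. The pheromone precursor gene *MFA2* was slightly higher (0.28 and 0.31). *STE3*, the receptor gene of alpha cells, was a higher member at 8.62 and 8.04, against 7.58 and 6.72. The other alpha genes above the filter, *SAG1* (0.23 and 0.19) and *MF(ALPHA)2* (-0.51 and -0.01), were not members. In such a culture fewer cells with a transcript and less of it per cell cannot be told apart, and the part of cell type in *STE3* was not tested.

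Both hypoxic members, of 12 genes on that list, were genes that the repressor Rox1 shuts off in air. *ANB1*, a translation factor gene, was at 1.84 after H2O2 and 3.04 untreated in sod1Δ, against 4.73 and 7.21 in wild type, and as the treated sod1Δ level is at background the gene was at least 5.35-fold lower there in deposited signal. *AAC3*, for an ADP/ATP carrier of the mitochondrial membrane, was at 2.23 and 6.34, against 5.53 and 8.77, and by the same bound at least 9.31-fold lower after H2O2. *ROX1* itself differed by -0.04 and 0.97, and the list medians were -0.03 and -0.15.

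Chromosome segregation genes made up a set of dim lower members that differed more after peroxide. *CSE4*, for the centromeric histone, was at 2.51 after H2O2 and 5.83 untreated in sod1Δ, against 6.02 and 6.98 in wild type. *SPC29*, for a spindle pole body component, was at 2.68 and 4.46, against 6.58 and 6.14. The kinesin gene *CIN8* (-1.43 and -1.04) and the monopolin gene *CSM1* (-1.89 and -1.55) were members too. In a group of 40 kinetochore and spindle genes above the filter, chosen after their values were seen, these 4 were the members, and the medians were -0.66 and -0.33. *CSE4* and *CIN8* were no longer members after quantile normalization, and none of the 4 was a member with 32 added to the signal or when 1 array above 8 was required. No gene of the 20 on the G1 and S phase list was a member, although 9 were at least 2-fold lower after H2O2, where the list median was -0.93, against -0.24 untreated.

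Other lower members acted in transcription and genome maintenance. They included the phospholipid regulator gene *INO4* (-2.07 after H2O2 and -1.93 untreated), the histone deacetylase subunit genes *PHO23* (-1.32 and -1.62) and *SAP30* (-1.51 and -1.18), and *RRN10* (-1.63 and -1.44) of RNA polymerase I initiation. The repair genes *RAD18* (-1.06 and -1.16), *RAD33* (-1.37 and -1.24) and *ELG1* (-1.52 and -1.32), the meiotic genes *NDJ1* (-1.73 and -2.41), *SPO16* (-1.71 and -1.97) and *MSH5* (-2.03 and -1.08), and the splicing genes *PRP21* (-1.19 and -1.57) and *MSL1* (-1.38 and -1.0007) also met the rule. *CHA1*, for the enzyme that breaks down serine and threonine, differed by -2.97 and -1.27, and the Golgi mannosyltransferase gene *MNN1* differed by -2.33 and -1.04. Lower members with mitochondrial products included *RRF1* (-2.53 and -1.83), *CBP6* (-1.11 and -1.73), *LIP2* (-1.01 and -1.07) and *ECM10* (-1.70 and -1.36). *YOL014W*, at 5.26 and 5.27 in sod1Δ, against 8.44 and 7.44 in wild type, and *YGR035C*, at 6.03 and 7.15, against 8.56 and 9.10, have no standard name.

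The largest mean difference among the higher members was that of *COS12*, of a family near chromosome ends, at 6.27 after H2O2 and 6.30 untreated in sod1Δ, against 2.37 and 2.32 in wild type, where it was close to background. *YOR338W* was at 7.92 and 9.47, against 5.11 and 6.55. *HUG1*, known for its induction by replication stress and as an inhibitor of ribonucleotide reductase, was at 6.23 and 7.36, against 4.18 and 4.20. With peroxide *COS12* differed by -0.03 in sod1Δ and 0.05 in wild type, and *HUG1* by -1.13 in sod1Δ and -0.01 in wild type.

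Of 26 cell wall genes 2 were higher members, *PIR3* and *GAS4*, and the list medians were 0.18 after H2O2 and 0.18 untreated. *PIR3*, for a cell wall protein, was at 10.24 and 8.59 in sod1Δ, against 8.25 and 6.10 in wild type, and the spore wall gene *GAS4* differed by 1.12 and 1.29. Higher members not on that list included the mannoprotein gene *HPF1* (1.67 and 1.70), the spore wall gene *CDA1* (2.23 and 2.67) and the sporulation gene *SPS19* (1.51 and 1.81). They also included the water channel gene *AQY2* (1.64 and 1.96), the polyamine exporter genes *TPO2* (1.17 and 1.13) and *TPO3* (1.35 and 1.07), and *ATO2* (1.14 and 1.09). *BNA2*, the first enzyme gene of NAD synthesis from tryptophan, was at 11.27 and 11.46, against 9.56 and 9.47. *FMP45*, of a membrane protein family, and its chromosome neighbour *HBT1* differed by 2.25 and 1.98 after H2O2 and by 2.43 and 1.87 untreated.

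**Figure D3:**
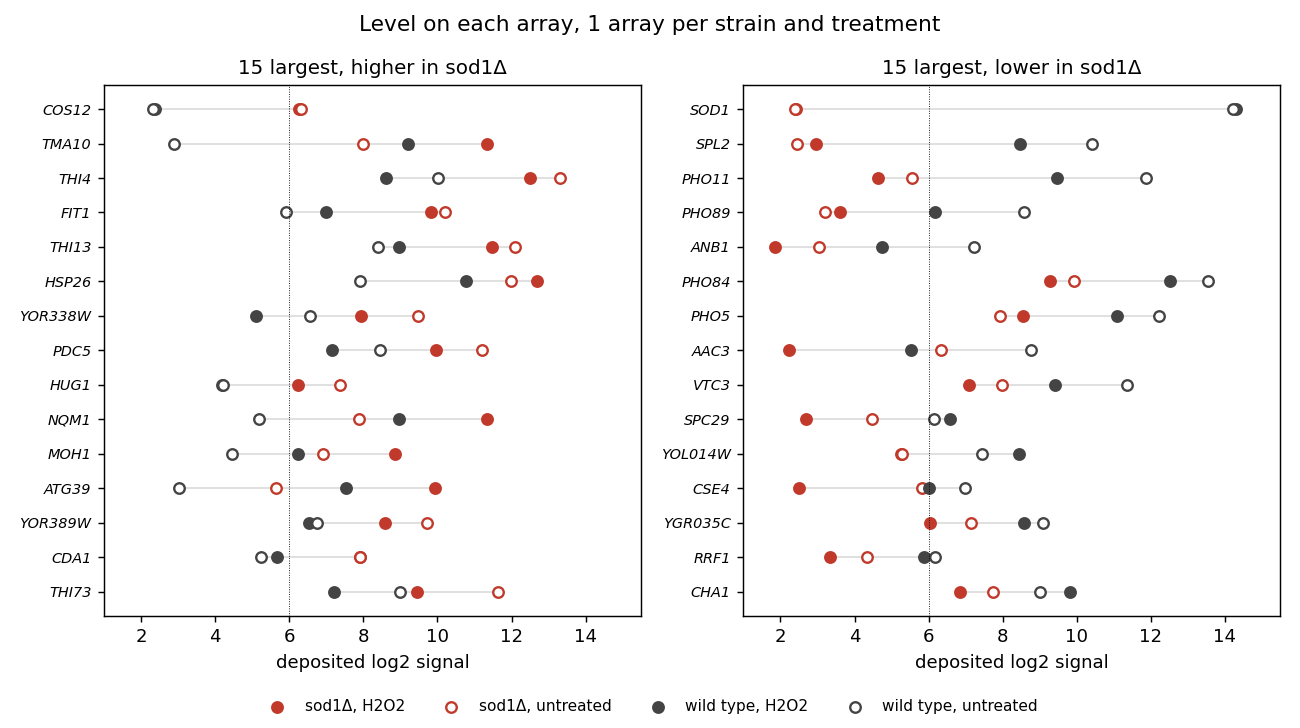
Deposited log2 signal (horizontal axis) on each of the 4 arrays for the 15 higher and the 15 lower members with the largest mean difference; red is sod1Δ, dark grey is wild type, filled points are after H2O2, open points are untreated, and the dotted line marks 6. The red and grey points of a gene overlap in range only for *TMA10*, *NQM1*, *ATG39* and *AAC3*.

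Both sod1Δ arrays lay above both wild type arrays for 44 of the higher and below them for 42 of the lower members, where 10.0% and 12.9% of all genes lay so. The rule used the same values, so nothing is read from these counts. For the other members a peroxide response larger than the strain difference made the levels overlap.

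The size of the difference was not the same in both conditions for all members. It differed by at most 0.25 log2 units between treated and untreated cells in 28 of 69 higher and 23 of 61 lower members, beside 2572 of 5065 genes in all. It differed by at least 1 in 10 higher and 13 lower members, beside 306 of 5065 genes. For the higher members the untreated difference was the larger in 47 of 69, beside 2282 of 5065 genes. Their medians were 1.51 after H2O2 and 1.76 untreated. For the lower members the treated one was the larger in 37 of 61, beside 2783 of 5065 genes, a share not far from that of all genes. Their medians were -1.70 after H2O2 and -1.36 untreated, and in the lower phosphate members the untreated difference was the larger. *EGO4* (1.03 and 3.34), *TMA10* and *HSP26* had the largest excess in untreated cells among the higher members, and *CSE4*, *SPC29* and *CHA1* the largest excess after H2O2 among the lower. Differences of at least 4-fold in both conditions were found in 17 higher and 10 lower members.

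Many of the higher members were also higher after peroxide. Over all genes 14.9% were at least 2-fold higher and 16.0% lower after H2O2 in sod1Δ, against 17.3% and 16.3% in wild type. Of the 69, 28 were at least 2-fold higher after H2O2 in both strains, where 12.9% of all genes were, and 4 were lower in both, where 13.0% of all genes were. Of the 61 lower members, 9 were higher with H2O2 in both strains and 15 lower. No member was 2-fold higher with H2O2 in 1 strain and 2-fold lower in the other, and only 1 of 5065 genes in all was. These responses use the arrays that chose the members, and a dim untreated wild type level adds to both the strain difference and the wild type response. *OYE3* gave the largest, with 8.29 in sod1Δ and 8.22 in wild type, followed in wild type by *TMA10* (3.35 and 6.33), *PHM7* (4.27 and 6.05) and *EGO4* (3.30 and 5.61), where the sod1Δ response was smaller. *MET28* (2.96 and 2.76) was higher after H2O2 in both strains although it was lower in sod1Δ throughout. The peroxisomal transporter gene *PXA2* was at 5.10 after H2O2 and at background untreated (2.29) in sod1Δ, against 6.64 and 3.33 in wild type, so it was at least 2.02-fold lower in untreated sod1Δ. *TOS4*, a gene of the G1 to S transition, was lower after peroxide by 3.79 and 2.27 log2 units.

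**Figure D4:**
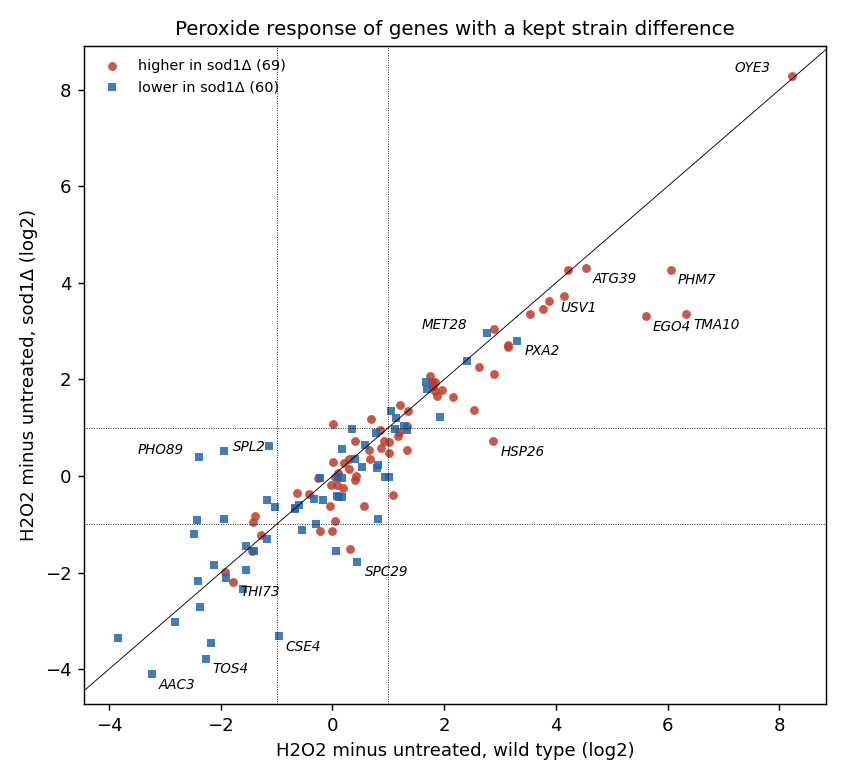
Change with H2O2 in wild type (horizontal axis) and in sod1Δ (vertical axis), in log2 units, for 69 higher members (red circles) and 60 lower members (blue squares, without *SOD1*); dotted lines mark 1 and -1 and the solid line equal changes. Most points lie along the line; *TMA10*, *PHM7*, *EGO4* and *HSP26* lie below it at the right, and *SPL2* and *PHO89* above it at the left.

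Several members lay near chromosome ends. Among the 10 outermost measured genes of each chromosome end lay 14 of 69 higher members (20.3%) and 7 of 61 lower members (11.5%), beside 266 of 5065 genes in all (5.25%). The higher ones included *COS12*, *FIT1*, *FIT3*, *THI13*, *HXT11*, *HPF1*, *MPH2*, *YPL277C* and *YPL278C*, and the lower ones *PHO11*, *PHO84* and *PHO89*. Several belong to families with near-identical copies, so a probe set can pick up more than 1 gene. *YPL277C* had probe sets that disagreed, with differences of 0.59 and 1.47 after H2O2 and 3.45 and 2.29 untreated, and in *MPH2* and *TPO2* 1 probe set fell short of 1 untreated, at 0.70 and 0.72. The member pairs that were direct neighbours were *HBT1* and *FMP45*, *TGL2* and *UBC5*, and *YPL278C* and *YPL277C*, each pair higher, and *CIN8* and *PRB1*, lower and higher.

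At the threshold the members nearest to 1 were *ATG40* (1.02 after H2O2), *DSF1* (1.02 untreated) and *POG1* (1.03 untreated) among the higher genes and *MSL1*, *LIP2* and *STE4* among the lower ones. Just outside stood *YPL229W* (0.97 after H2O2), *MST28* (0.97 after H2O2), *IMA3* (0.99 untreated), *VTC4*, *SHE1* (-0.99 after H2O2) and *MET14*. Of the 130 members 39 were on 1 or more of the 33 gene lists and 91 on none.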

How the data were processed

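The values analysed are log2 signals per probe set, as deposited by the authors on Affymetrix arrays that also carry *S. pombe* probe sets. Per the submitters' processing notes they come from GCRMA, with version and settings not given in the sources used here. An amplification of 50 ng of RNA preceded labelling, per the labels. Of 10928 probe sets 5498 named 1 *S. cerevisiae* gene in the platform's annotation table, 1 named several, 1746 were annotated to *S. pombe* and 3683 had no gene name here. Symbols of 12 probe sets were updated through the RefSeq gene table (assembly R64, used for names and gene order). Probe sets of a gene were averaged (47 genes had several), giving 5449 genes.

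Strain differences were taken within each treatment. limma 3.58.1 in R 4.3.3 fitted strain and treatment terms to genes above 6. The steps were also run on simulated data with independent noise and differences planted only in genes that were not dim on any array. That run does not cover the dim members, and nothing is read from it. Members, gene lists and groups were chosen with earlier results of these data known. Genes named are the members, the largest 15 each way, list members and genes nearest the threshold. Alternatives were quantile normalization, median centring, 32 added to the signal, other level filters, the brightest probe set, a threshold of 1.5, and limma without the treatment term or with a prior trend. Arrays give no counting depth. Promoter sequences were not used here.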

Additional observations from a re-analysis of the deposited data

How the results depend on the processing

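All 69 higher and 61 lower members kept their sign under every normalization, pseudocount and probe set alternative, and the counts of members were within 1.5 times under the alternatives not named here. The count of higher genes was 30 at a threshold of 1.5. The count of lower genes was 24 with 32 added to the signal, 34 with at least 1 array above 8 and 19 at a threshold of 1.5. Members lower on the a mating list numbered 1 with 32 added and 0 at a threshold of 1.5, where the sulfur list had 0 lower and the iron list 1 higher. Without a level filter 72 genes were higher and 74 lower. The limma counts of higher and lower genes were 1 and 1 after quantile normalization, 5 and 2 after centring, 112 and 85 with 32 added, 52 and 33 with an array above 8, 0 and 1 without a level filter, 0 and 1 without the treatment term, and 215 and 137 with a prior trend; the cause was not tested. At an unadjusted p under 0.05 limma gave 467 higher and 685 lower without a level filter, and 46 and 56 without the treatment term. No paired analysis was possible beyond the treatment term because each strain and treatment has 1 array, and leaving out an array leaves no residual degrees of freedom. No array reached 8 for 27 of the 61 lower members, beside 754 of 5065 genes in all.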

Other observations

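Outside the named genes, 8 probe sets with no gene name here, of 205 above 6, met the membership rule, 5 higher and 3 lower in sod1Δ. The brightest of them was at 13.45 after H2O2 and 13.33 untreated in sod1Δ, against 12.33 and 12.08 in wild type. The 18 hybridization controls above 6 had a median strain difference of 0.28 after H2O2 (0.05 to 0.65) and -0.22 untreated (-0.85 to -0.02), and none met the rule.

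The median annotated gene length was 1143 bases for the higher and 963 for the lower members, beside 1248 for all genes above the filter.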
